A study of Macaca fascicularis with 32 samples.

Results

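The caudate nucleus, which together with the putamen forms the dorsal striatum, was compared between a Parkinson's disease model of the cynomolgus macaque (PD) and its control (CT). The members were all barcodes with 500 or more detected genes, 9666 of 9793 barcodes in the PD matrix and 9288 of 9797 in the CT matrix, together 18954 of the 55091 barcodes that passed the same limit in the whole series. The model combined an adeno-associated virus (AAV) with poly(ADP-ribose), the polymer that PARP enzymes make, and the labels call the treatments PD and CT without giving doses, times, ages or what the CT animals received. Single nuclei were sequenced from their 3′ ends on the 10x platform. The labels list 4 PD and 8 CT samples of this tissue, which they write "Caudal nucleus", but each matrix holds 1 pooled set of barcodes with no key to the samples. Each group was therefore 1 library, no test was possible, and treatment cannot be told apart from the animals or the library. All intervals are at 95% and cover counting error only.

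Most neurons of the caudate nucleus are spiny projection neurons (SPNs), which use GABA and receive dopamine from the midbrain. Direct pathway SPNs carry the dopamine receptor DRD1 and the peptide precursors TAC1 and PDYN, indirect pathway SPNs carry DRD2, the adenosine receptor ADORA2A and the enkephalin precursor PENK, and in both dopamine acts through cAMP. Oligodendrocytes, astrocytes and microglia make up most of the remaining cells, with small classes of interneurons that release peptides, acetylcholine or nitric oxide.

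The CT library held 30814558 UMIs (unique molecular identifiers) over the members and the PD library 36652330, with medians of 3142 and 3007 UMIs per barcode. Between 450 and 499 genes, just under the limit, lay 347 CT and 91 PD barcodes, and between 500 and 549 genes, just above it, 383 and 188. Mitochondrially encoded genes took 0.0215% and 0.0196% of the UMIs. The 2 caudate matrices shared 23 barcodes, within the 14 to 38 shared by any 2 matrices of the series. Scrublet doublet scores above 0.25 marked 5.94% of CT and 5.14% of PD barcodes, and these were kept. Markers common to SPNs summed to 7383 CPM (UMI counts scaled to equal library totals) in CT and 7534 in PD, while TH, which makes the dopamine precursor L-DOPA, had 0 UMIs in both libraries and PVALB, a marker of fast-spiking interneurons, had 4 and 2. SPN markers also had UMIs in other nuclei and summed to 2295 CPM in CT and 2485 CPM in PD within oligodendrocyte-like barcodes, a level to hold beside neuronal genes in glial classes.

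The cell makeup of the libraries differed first in oligodendrocytes, the cells that make myelin, which were a larger share in PD, and in neurons and astrocytes, which were smaller shares. Oligodendrocyte-like barcodes made up 20.05% of the CT library (1862) and 34.5% of the PD library (3333), a ratio of 1.72 (1.62 to 1.82). All neuron-like barcodes together took 60.6% and 46.9% (ratio 0.775, 0.745 to 0.806). The share of astrocyte-like barcodes was lower, 6.46% and 3.57% (0.553, 0.483 to 0.632). Microglia or macrophage-like barcodes took 4.44% and 6.30% (1.42, 1.25 to 1.61). T or NK lymphocyte-like barcodes numbered 8 in CT and 25 in PD (3.00, 1.31 to 7.70). This ratio was 1.39 (0.236 to 9.51) among barcodes with 1000 or more genes and 5.77 at a clustering resolution of 0.3, and the summed T or NK markers of the whole libraries had a ratio of 0.922 (0.832 to 1.02).

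**Figure D1:**
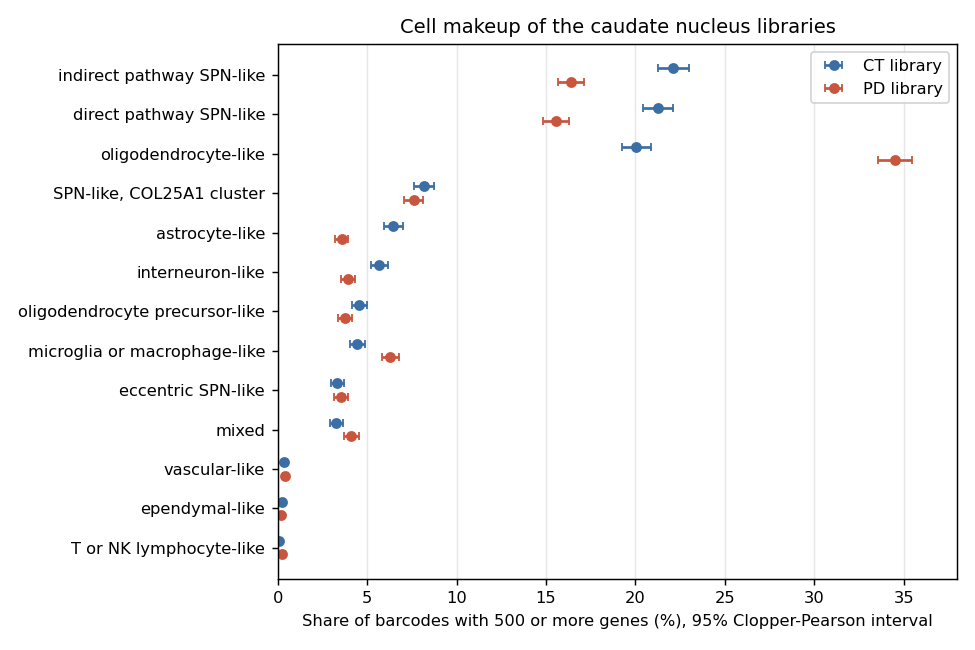
Share of barcodes with 500 or more genes (x axis, %) in each class named from markers (y axis), for the CT (blue) and PD (red) libraries, 1 library each; points are shares and bars exact 95% Clopper-Pearson intervals. Oligodendrocyte-like barcodes are 20.05% in CT and 34.5% in PD, and both main SPN-like classes are lower in PD.

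Among neurons the 2 SPN pathways stood in nearly the same proportion in both libraries. Direct pathway SPN-like barcodes took 21.3% of the CT and 15.5% of the PD library (0.731, 0.683 to 0.782), and indirect pathway SPN-like barcodes were 22.1% and 16.4% (0.741, 0.694 to 0.792). The number of direct for each indirect barcode was 0.962 in CT and 0.948 in PD. With neurons alone as the denominator both ratios had intervals that include 1 (0.943, 0.881 to 1.01, and 0.956, 0.895 to 1.02), while eccentric SPN-like barcodes, a smaller SPN type, were 5.51% and 7.49% of neurons (1.36, 1.16 to 1.59). Over all barcodes the eccentric SPN-like ratio had an interval that includes 1 (1.05, 0.901 to 1.23). An SPN-like cluster led by COL25A1 was 8.16% and 7.59% of all barcodes (0.930, 0.840 to 1.03). Of neurons it was 13.48% and 16.17%, with an interval of the ratio above 1 (1.08 to 1.33). Interneuron-like barcodes were 5.67% and 3.91% of all barcodes (0.689, 0.602 to 0.788). Among neurons alone their ratio had an interval that includes 1 (0.889, 0.777 to 1.02).

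Depth moved with these shares. All 9 classes with 100 or more barcodes in each library had a higher median UMI count in PD, by 1.16 to 1.47 times, with 844 against 1129 UMIs in oligodendrocyte-like and 4256 against 5657.5 in direct pathway SPN-like barcodes. Of the oligodendrocyte-like barcodes 79 in CT and 623 in PD had 1000 or more genes, so with that limit the share ratio was 8.24. Among glia alone the oligodendrocyte ratio was 1.27 and the microglia or macrophage ratio 1.05 (0.924 to 1.19). Oligodendrocyte precursor-like barcodes were 4.57% and 3.76% (0.823, 0.713 to 0.949), but 1.72 times as frequent in PD among barcodes with 1000 or more genes. What part depth had in the shares was not tested.

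Across the whole libraries 13494 genes had 100 or more UMIs over both sides and were measured. Of these 178 were higher in PD by 2-fold or more, 1.32% of the genes measured, and 446 were lower, 3.31%. The median log2 ratio of all genes measured was -0.12, and 34.5% of genes had a ratio above 1. With ratios centred on that median 240 genes were higher and 319 lower by 2-fold, and with each barcode weighted alike 194 and 504. With each barcode thinned to 1000 UMIs, which left out 1817 CT and 1484 PD barcodes and left fewer genes measured, the counts were 316 and 249. In bulk sums of this kind fewer cells of a type and less RNA per cell cannot be told apart, and so the ratios were also computed with every class given the same weight in both libraries. In that setting 142 genes (1.05%) were higher and 420 (3.11%) lower, of which 128 and 389 were also past 2-fold in the plain sums.

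The genes that stood furthest apart were mostly of low level, with ABO, SP100, NKD2 and CDH23 among the more abundant ones. ABO, the glycosyltransferase of the blood group antigens, was 2.82 CPM in CT and 45.5 CPM in PD (16.1-fold, 12.98 to 20.2). It was higher in PD in all 9 classes, at most 31.2 CPM in any class of the CT library, in interneuron-like barcodes, and from 12.2 to 62.7 CPM over the classes of the PD library. SP100, a component of PML nuclear bodies that interferon induces, was 20.8 and 89.4 CPM (4.299-fold, 3.95 to 4.69). In direct pathway SPN-like barcodes SP100 was 8.89 and 98.5 CPM and in interneuron-like barcodes 70.1 and 81.5 CPM. NKD2, an inhibitor of Wnt signalling, was 5.42 and 35.4 CPM (6.54-fold), with 2.10 and 40.4 CPM in indirect pathway SPN-like barcodes. DSP, the desmosome protein desmoplakin, was 1.43 and 11.3 CPM, and G6PC, the catalytic subunit of glucose-6-phosphatase, 0.195 and 3.77 CPM. FAM83B had 2 UMIs in CT and 139 in PD, and AARD had 4 and 118. The other 5 genes highest by the bound of their interval were MLPH, EFHB, TNIP3, RBP2 and ATP6AP1L, with ratios from 4.49 (ATP6AP1L) to 12.6 (MLPH).

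**Figure D2:**
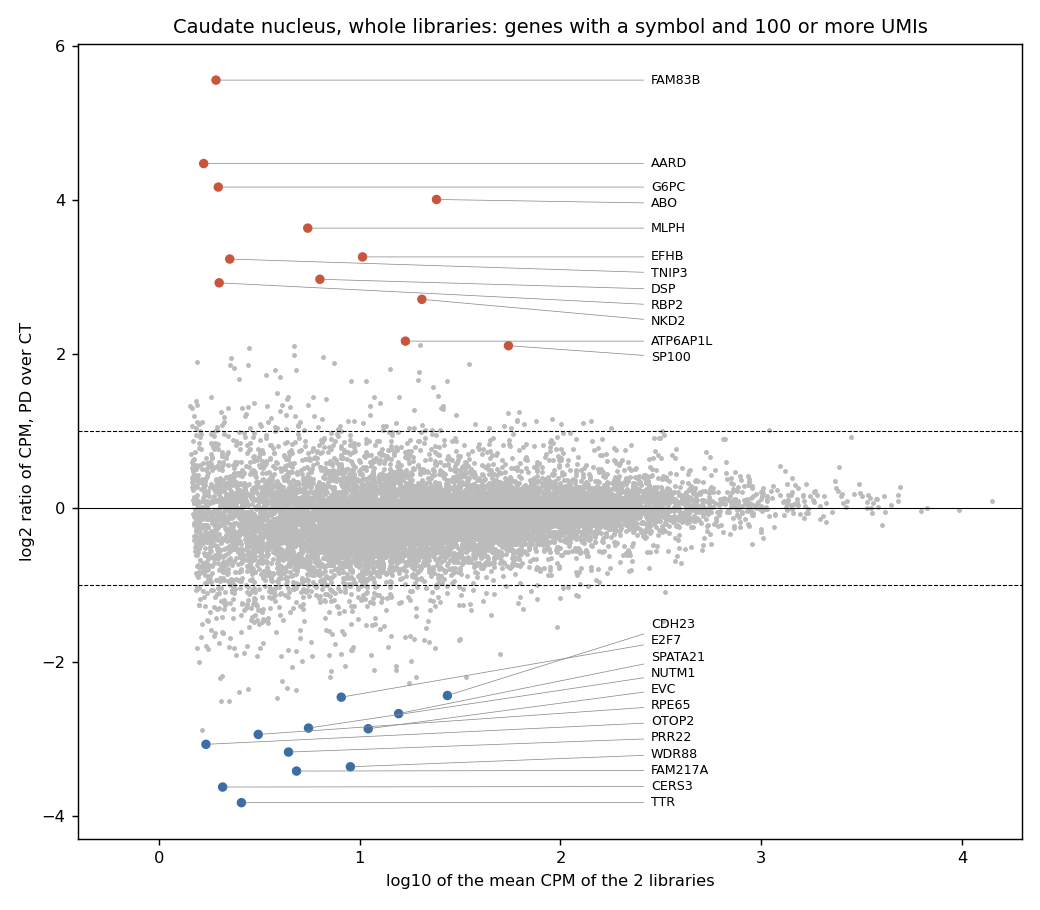
Log2 ratio of CPM, PD over CT (y axis), against the log10 of the mean CPM of the 2 libraries (x axis) for genes with a symbol and 100 or more UMIs; red and blue points are the 12 named genes highest and lowest in PD, and dashed lines mark 2-fold. Most genes lie within 1.5-fold (84.1%), and the named genes lie mainly at low levels, with ABO and SP100 among the more abundant.

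Among the genes lowest in PD was TTR, the thyroid hormone carrier transthyretin that choroid plexus makes in large amounts. TTR was 4.84 CPM in CT and 0.327 CPM in PD (14.8-fold lower). The summed choroid plexus markers, most of whose CT UMIs were TTR itself, went from 6.26 CPM in CT to 1.501 CPM in PD. Among the other markers AQP1 was 1.30 and 1.17 CPM (0.904, 0.574 to 1.43). CLIC6 and FOLR1 had 3 and 1 UMIs in CT and 0 in PD. TTR was present at low levels in all 9 classes of the CT library, 3.05 to 15.8 CPM, and was at most 1.05 CPM in any class of the PD library, where oligodendrocyte-like barcodes had 0 UMIs against 27 in CT (at least 21.6-fold lower, with the floor of 3 UMIs in that class). The source of this RNA was not tested. CDH23, a cadherin of sensory hair cells, was 46.2 and 8.51 CPM, WDR88 16.4 and 1.58 CPM, EVC, a ciliary protein of Hedgehog signalling, 19.4 and 2.65 CPM, and CERS3, a ceramide synthase, 3.86 and 0.300 CPM. RPE65, the retinoid isomerase of the visual cycle, was 5.55 and 0.709 CPM. The other 6, FAM217A, PRR22, NUTM1, SPATA21, OTOP2 and E2F7, were 5.53-fold to 10.9-fold lower. All 24 genes kept their direction and stayed past 2-fold in every alternative in which they were measured.

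These genes also stood apart in the putamen, the other part of the dorsal striatum. All 12 highest and all 12 lowest genes were also past 2-fold in the same direction in the putamen, against 5 of 11 of the highest with a value and 9 of 12 of the lowest in the substantia nigra. ABO was 20.6-fold higher in putamen PD but 88.5 CPM in CT and 105.9 CPM in PD of the substantia nigra (1.197). FAM83B, NKD2 and DSP had nigral ratios of 1.01, 1.04 and 1.504, and that of CDH23 was 1.46. Of the 178 genes higher in the caudate nucleus 147 were measured in the putamen, and 85 (57.8%) were past 2-fold there, where 1.27% of all genes measured were. Of the 446 lower genes 381 were measured and 154 (40.4%) were past 2-fold, with a background of 1.98%. In the substantia nigra the counts were 58 of 146 (39.7%; background 2.17%) and 96 of 306 (31.4%; background 2.21%). The labels do not say whether the regions came from the same animals, and no difference between regions was tested.

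Nearly all measured genes of cholesterol synthesis, nuclear-encoded respiration and the heat shock response were lower in PD. Neurons and glia make their own cholesterol, because little crosses the blood-brain barrier. Of 20 measured cholesterol genes 1 had a ratio above 1, where 34.5% of all genes did, and the intervals of 17 lay below 1, as did those of 44.7% of all genes. The median log2 ratio was -0.51, both in the plain sums and with classes weighted alike, against -0.12 and -0.13 over all genes. MSMO1, which removes methyl groups from sterol intermediates, was 43.9 CPM in CT and 18.3 CPM in PD (2.40-fold lower). HMGCS1, which makes HMG-CoA, was 35.8 and 20.6 CPM, SQLE, squalene epoxidase, 52.8 and 32.5 CPM, and MVK, mevalonate kinase, 13.95 and 7.31 CPM.

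The cholesterol genes were lower in neurons and glia alike. In direct and in indirect pathway SPN-like barcodes all 20 members lay below 1 (medians -0.65 and -0.56), where 31.7% and 30.9% of all genes lay above 1. In oligodendrocyte-like barcodes 14 of 16 measured members lay below 1 (median -0.38), where 42.3% of all genes lay above 1, and in astrocyte-like barcodes 8 of 8 (-0.57), where 42.2% did. MSMO1 was lower in all 9 classes, with ratios from 0.300 in microglia or macrophage-like to 0.632 in oligodendrocyte precursor-like barcodes, the last with an interval that includes 1 (0.333 to 1.19). INSIG1, which retains the sterol sensor in the endoplasmic reticulum, was the member above 1 in the whole library (log2 0.25) and was lower in both main SPN classes (log2 -0.45 and -0.87). The list had a median of -0.55 in the putamen and 0.03 in the substantia nigra.

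**Figure D3:**
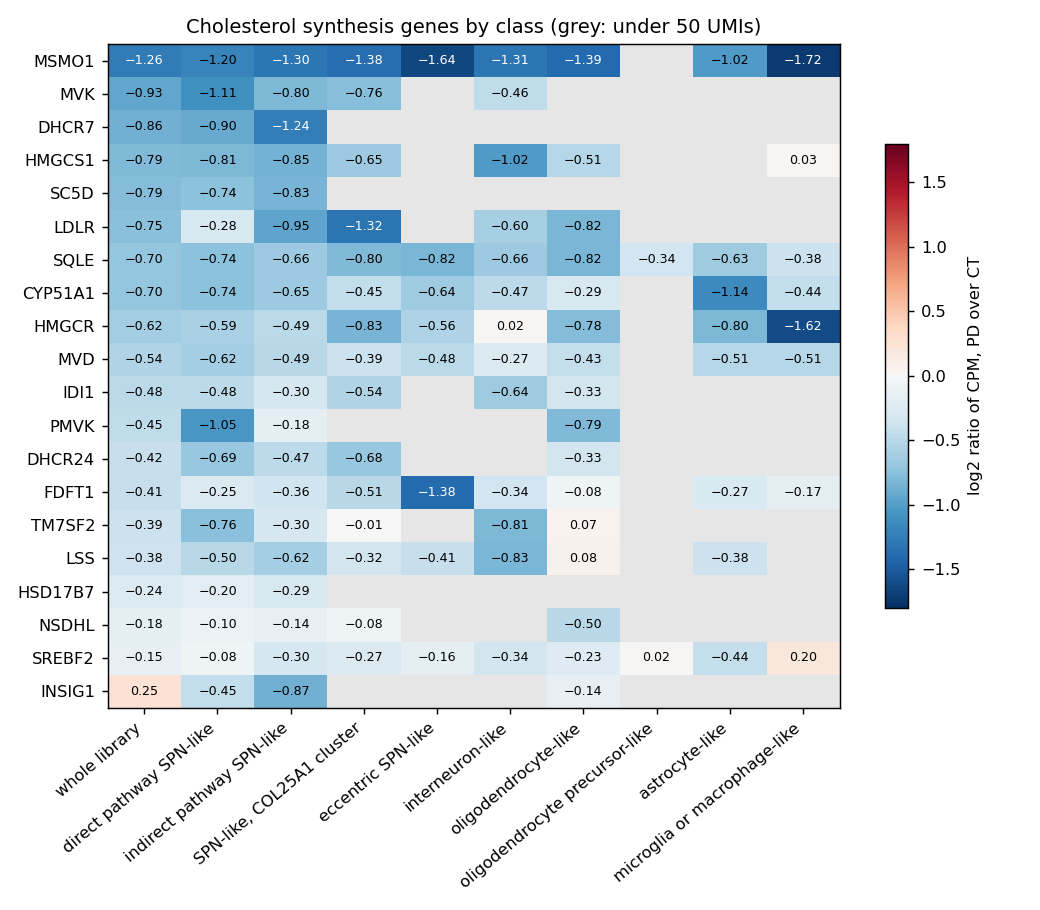
Log2 ratio of CPM, PD over CT (colour and printed value), for each measured cholesterol synthesis gene (rows) in the whole caudate libraries and in each class (columns); grey cells had under 50 UMIs over both libraries. Nearly all cells are blue (lower in PD), and the MSMO1 row is below 0 in every class shown.

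Nuclear-encoded respiratory chain genes had 2 of 22 members above 1 and a median log2 ratio of -0.26. NDUFS3, a complex I subunit, was 36.0 and 22.3 CPM and ATP5MC3, a subunit of ATP synthase, 26.1 and 17.6 CPM, while NDUFS1, the largest complex I subunit, was higher at 51.8 and 57.7 CPM. All 9 classes had a median below 0 for this list, from -0.55 in eccentric SPN-like to -0.21 in astrocyte-like barcodes. The median of all genes was below 0 in every class too, from -0.16 in indirect pathway SPN-like to -0.04 in microglia or macrophage-like barcodes. Mitochondrially encoded genes had 1 of 11 members above 1 (median -0.15, near that of all genes), ND5, at 6.39 and 8.24 CPM. The list of chaperones and unfolded protein response genes had 2 of 17 above 1 (median -0.28), and all 9 classes had a median below 0, as for all genes. HSPA8, a constitutive chaperone, was 28.8 and 19.9 CPM, HSPD1, the mitochondrial chaperonin, 31.8 and 21.3 CPM, and ATF4, the transcription factor of the integrated stress response, 15.4 and 9.63 CPM. Iron and oxidative stress genes had 7 of 25 above 1, where 34.5% of all genes were, and a median of -0.15, near the -0.12 of all genes. In this list the peroxiredoxin PRDX5 was at 22.5 and 9.60 CPM.

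**Figure D4:**
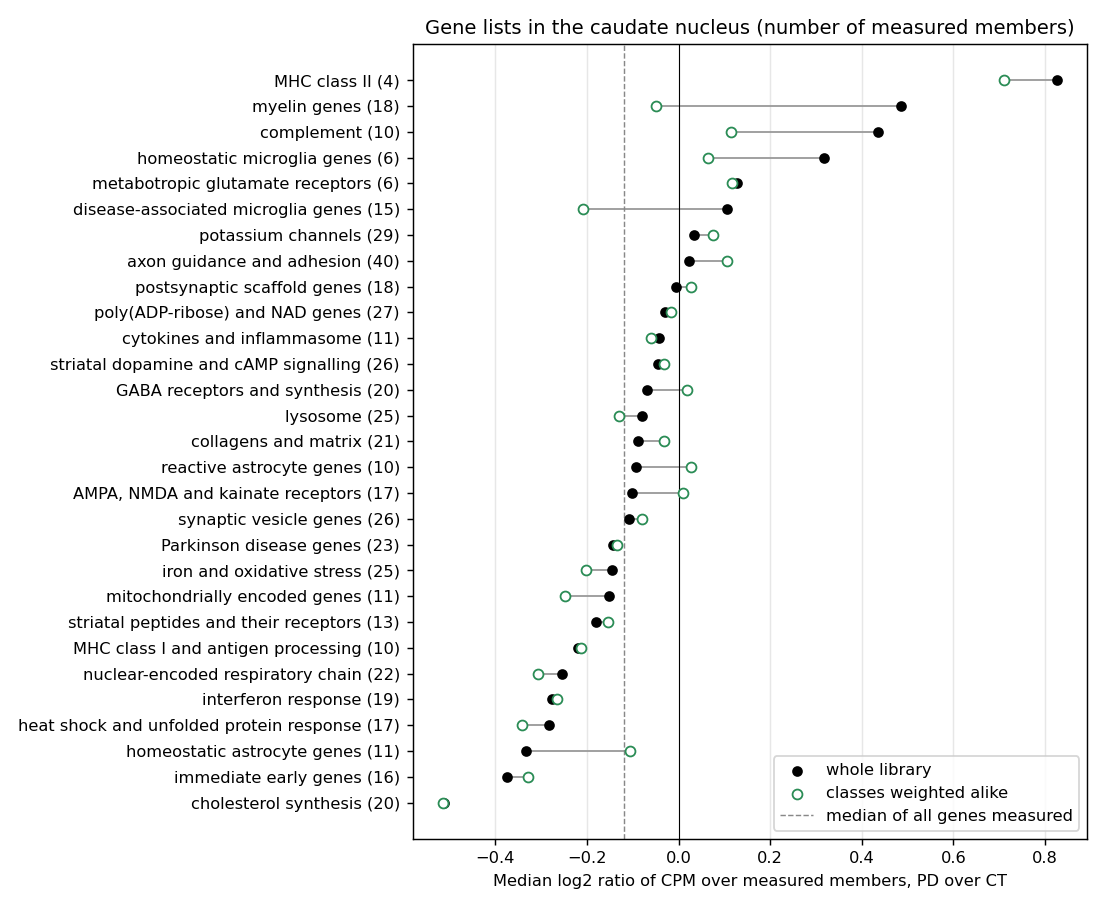
Median log2 ratio of CPM, PD over CT (x axis), over the measured members of each gene list (y axis, number of members in parentheses) in the whole libraries (filled) and with classes weighted alike (open); the dashed line is the median of all genes measured. Cholesterol synthesis is lowest at -0.51 in both settings, while myelin genes move from 0.49 to -0.05.

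Of the genes that act in dopamine and cAMP signalling of SPNs, DRD2 and PDE10A stood at nearly the same level in both libraries and PDE1B was lower in PD. None of 26 measured members was past 2-fold, which is near the share of 4.62% over all genes. Of these members 11 had a ratio above 1, where 34.5% of all genes did, and the median log2 ratio was -0.05. DRD2 was 150 CPM in CT and 154 CPM in PD (ratio 1.03, 0.990 to 1.07), and 337 and 369 CPM in indirect pathway SPN-like barcodes. ADORA2A was 22.7 and 18.6 CPM, and in the indirect class 43.8 and 39.4 CPM (0.899, 0.775 to 1.04). DRD1 had 62 UMIs in CT and 51 in PD, and its ratio of 0.692 had an interval that includes 1 (0.468 to 1.02). PPP1R1B, the phosphatase inhibitor DARPP-32, was 193 and 165 CPM, and PDE10A, the main cAMP and cGMP phosphodiesterase of SPNs, 3512 and 3660 CPM. PDE1B, a calcium-dependent phosphodiesterase, was 602 and 413 CPM (0.686, 0.671 to 0.701), and it was lower in both pathways, with 744 and 537 CPM in the direct and 723 and 509 CPM in the indirect class. RASD2, a striatal GTPase, was 12.9 and 18.5 CPM (1.43, 1.26 to 1.62), and RGS7, a regulator of G protein signalling, 1032 and 1250 CPM.

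Among the striatal peptides and their receptors 2 of 13 measured members had a ratio above 1 (median log2 -0.18), where 34.5% of all genes did. SST, somatostatin, was 12.4 CPM in CT and 5.70 CPM in PD (2.17-fold lower), and NPY, neuropeptide Y, 32.5 and 16.6 CPM. Both are made by the interneurons that also contain nitric oxide synthase, and in interneuron-like barcodes the ratios were nearer to 1, with NPY at 220 and 149 CPM and SST at 71.7 and 50.7 CPM. TAC1, the precursor of substance P, was 95.2 and 67.9 CPM, and 129 and 99.3 CPM in direct pathway SPN-like barcodes. PENK was 78.0 and 65.0 CPM, and 111 and 113 CPM in indirect pathway SPN-like barcodes (1.01, 0.925 to 1.11). PENK stood at 143 CPM in CT and 82.8 CPM in PD in oligodendrocyte-like barcodes, and NPY at 66.0 and 25.3 CPM. Both peptides were lower in PD in oligodendrocyte-like barcodes, whereas PENK stood at a like level in the indirect class. The source of peptide RNA in oligodendrocyte-like barcodes was not tested. OPRM1, the μ-opioid receptor, was 180 and 199 CPM, and PDYN 12.2 and 11.05 CPM (0.906, 0.785 to 1.04).

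Immediate early genes, which neurons switch on within minutes of activity, had 4 of 16 measured members above 1 (median log2 -0.38). Of all genes 34.5% were above 1. FOS was 3.86 and 1.26 CPM (0.325, 0.226 to 0.460), NPAS4, a factor specific to neuronal activity, 4.15 and 1.75 CPM, and DUSP1, a MAP kinase phosphatase, 2.86 and 1.23 CPM. BDNF was 7.04 and 3.66 CPM. The abundant HOMER1, a postsynaptic scaffold, went the other way at 333 and 476 CPM, and the list's median was 0.21 over members with 500 or more UMIs. Parkinson's disease genes had 9 of 23 members above 1 (median -0.14) and 1 past 2-fold, a share close to the 4.62% of all genes. This was BST1, an enzyme that cleaves NAD, at 24.3 and 5.87 CPM (4.14-fold lower). BST1 was lower in all 9 classes. UCHL1, an abundant neuronal deubiquitinase, was 195 and 113 CPM, with class ratios from 0.462 to 0.671, and TMEM175, a lysosomal channel, was 53.4 and 33.8 CPM. LRRK2, a kinase, was 98.9 and 116 CPM (1.18, 1.12 to 1.23).

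The genes that make, remove or bind poly(ADP-ribose) and those of NAD metabolism had a median near 0 (log2 -0.03), with 12 of 27 members above 1 (34.5% of all genes were) and none past 2-fold, near the share of 4.62% over all genes. NMNAT3, an NAD synthase, was 27.5 and 42.6 CPM (1.55, 1.42 to 1.69), PARP8 40.9 and 52.6 CPM, and TNKS, tankyrase, 327 and 372 CPM. On the other side PARP9, an interferon-induced PARP, was 24.3 and 13.04 CPM, NAMPT, the rate-limiting enzyme of NAD salvage, 37.3 and 27.8 CPM, and PARP2 16.7 and 11.3 CPM.

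Synaptic groups were mixed. Axon guidance and adhesion genes had 23 of 40 members above 1 (median log2 0.02), and their median lay above 0 in all 9 classes, while that of all genes lay below 0 in each. CDH13, a cadherin without a transmembrane part, was 47.4 and 103 CPM (2.17-fold, 2.05 to 2.31). It was 67.2 and 493 CPM in eccentric SPN-like and 230 and 763 CPM in interneuron-like barcodes, but 152 and 67.9 CPM in microglia or macrophage-like barcodes. LAMA2, a laminin chain, was 9.02 and 30.7 CPM, with 3.15 and 30.4 CPM in the indirect and 5.22 and 27.3 CPM in the direct pathway class. Synaptic vesicle genes had 6 of 26 above 1 (median -0.11, near that of all genes), with SYP, synaptophysin, at 60.6 and 40.5 CPM, and potassium channels 17 of 29 (median 0.03), with KCNH1 at 493 and 301 CPM and KCNB2 at 210 and 280 CPM. GABA receptor and synthesis genes had 8 of 20 above 1, AMPA, NMDA and kainate receptors 5 of 17 and postsynaptic scaffolds 9 of 18. Over all genes 34.5% were above 1.

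Beyond the lists, ACBD7 and EPB41L4A stood far apart within more than 1 SPN class but not in every glial class. In direct pathway SPN-like barcodes 1.16% of the genes measured were higher and 3.79% lower by 2-fold, and in indirect pathway SPN-like barcodes 1.23% and 4.32%. ACBD7, an acyl-CoA binding protein, was 0.778 and 24.9 CPM in the direct and 0.816 and 29.8 CPM in the indirect class. In astrocyte-like barcodes ACBD7 was 182 CPM in CT and 198 CPM in PD. EPB41L4A, a protein of the band 4.1 family, was 144 and 19.6 CPM in the direct, 140 and 17.4 CPM in the indirect and 130 and 18.4 CPM in the COL25A1 class, but 293 and 383 CPM in oligodendrocyte-like barcodes. KBTBD12 was 18.01 and 0.875 CPM in the direct class. In eccentric SPN-like barcodes, where 1.44% of genes were higher and 2.36% lower, PDE5A, a cGMP phosphodiesterase, was 10.7 and 72.1 CPM. In interneuron-like barcodes (0.524% and 2.4%) HFM1, a meiotic helicase, was 11.4 and 69.5 CPM and ABCA13, a lipid transporter, 27.5 and 2.85 CPM.

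Myelin genes were higher in the whole PD library, 15 of 18 above 1 with a median log2 ratio of 0.49, but not with classes weighted alike, where the median was -0.05. The makeup alone, with each class given its CT profile in both libraries, gave 0.68. MOBP was 89.8 and 196 CPM and MBP, myelin basic protein, 448 and 834 CPM in the whole libraries. Within oligodendrocyte-like barcodes the myelin genes stood at like levels in both libraries. MBP was 5290 and 5644 CPM and MOBP 1119 and 1335 CPM, and 10 of 18 members were above 1 (median 0.03). Other genes stood further apart in these barcodes, where 1.63% of the genes measured were higher and 2.84% lower by 2-fold. DMD, dystrophin, was 92.9 and 1258 CPM (13.5-fold, 11.6 to 16.0), and it was also higher in microglia or macrophage-like (2.46, 2.07 to 2.95), astrocyte-like (1.67) and eccentric SPN-like (1.66) barcodes. Oligodendrocyte markers summed to 2800 and 2655, 857 and 1252, and 382 and 413 CPM in these 3 classes. In oligodendrocyte-like barcodes they summed to 10712 and 11033 CPM. What part oligodendrocyte RNA had in the DMD ratios of other classes was not tested. In both main SPN classes and in precursors the ratio of DMD was between 1.06 and 1.08, in the COL25A1 class 0.963 and in interneuron-like barcodes 0.886. CLDN16, a tight junction claudin, had 0 UMIs in CT and 84 in PD, at least 11.7-fold higher with the floor of 3 UMIs in that class. CHST9, a sulfotransferase, was 9.93 and 80.6 CPM. CMTM8 was lower at 205 and 17.1 CPM (0.0832, 0.0634 to 0.108), as were HS3ST4, a heparan sulfate sulfotransferase, at 360 and 79.2 CPM and CINP at 113 and 24.6 CPM.

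Astrocytes clear glutamate and potassium from the tissue. Homeostatic astrocyte genes were lower in the whole PD library (1 of 11 above 1, median log2 -0.33), yet within astrocyte-like barcodes 8 of 11 were above 1 (median 0.21). GFAP, the intermediate filament that marks reactive astrocytes, was 61.8 and 59.7 CPM within the class (0.966, 0.678 to 1.37). CD44, a hyaluronan receptor, was 34.6 and 76.5 CPM. Of the 7 reactive astrocyte genes measured in these barcodes 4 were above 1 and 3 below, where 42.2% of all genes were above 1. Past 2-fold were 1 higher and 1 lower. By 2-fold 0.77% of the genes measured were higher in these barcodes and 2.59% lower. DPP10, an auxiliary subunit of potassium channels, was 388 and 1819 CPM (4.69-fold, 4.25 to 5.18), and it was also 1.31-fold to 2.86-fold higher in the other 8 classes. WIF1, an inhibitor of Wnt, was 28.0 and 122 CPM, BBOX1, of carnitine synthesis, 39.0 and 166 CPM, and FBLN1, a matrix protein, 19.1 and 85.9 CPM. AFF2 was 145 and 9.43 CPM and GSAP, γ-secretase activating protein, 1173 and 344 CPM. In oligodendrocyte precursor-like barcodes, where 0.575% of genes were higher and 1.71% lower, GRIA4, an AMPA receptor subunit, was 87.7 and 247 CPM and ATP13A5, a transport ATPase, 572 and 185 CPM.

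HLA-DRA, HLA-DPA1, CD74 and CIITA, genes of antigen presentation by MHC class II, the molecules that show peptides to helper T cells, were higher in PD in microglia or macrophage-like barcodes. In that class 1.38% of the genes measured were higher and 1.8% lower by 2-fold. HLA-DRA was 2.20 and 34.3 CPM (2 and 50 UMIs; 15.6-fold, 4.10 to 133), HLA-DPA1 5.49 and 42.5 CPM (5 and 62 UMIs), the invariant chain CD74 22.0 and 115 CPM (5.22-fold, 3.27 to 8.76), and CIITA, the class II transactivator, 9.88 and 54.9 CPM (5.55-fold, 2.78 to 12.6). HLA-DRA, HLA-DPA1 and CIITA reached the limit of 50 UMIs only through the PD library, so their number is no count over the list, and HLA-DPB1 with 8 and 22 UMIs stayed under it. The HLA genes resemble others of their family, and reads may be split between copies. Microglia markers summed to 1173 and 1431 CPM in the class (1.22, 1.13 to 1.31) and border macrophage markers to 404 and 478 CPM (1.18, 1.04 to 1.35). CX3CR1, the fractalkine receptor of microglia, was 182 and 139 CPM, CSF1R 163 and 229 CPM, and the border macrophage markers F13A1 32.9 and 32.3 CPM, MRC1 132 and 150 CPM and CD163 57.1 and 66.6 CPM. What part the mix of the 2 cell types had in the class II values was not tested. SPN markers summed to 4113 and 4145 CPM and oligodendrocyte markers to 2800 and 2655 CPM in these barcodes.

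In the whole library CD74 (1.88 and 7.503 CPM) and HLA-DRA (0.649 and 2.46 CPM) were higher, but the class II gene HLA-DPB1 was lower (6.59 and 1.17 CPM; 5.62-fold), and so it was in the 3 largest SPN classes. In direct pathway SPN-like barcodes HLA-DPB1 was 8.004 and 0.328 CPM (72 and 3 UMIs), in indirect 6.76 and 0.561 CPM, and in the COL25A1 class 9.97 and 0.449 CPM. In microglia or macrophage-like barcodes it was 8.79 and 15.1 CPM (1.72, 0.737 to 4.46). CIITA was lower in the direct class as well, at 5.89 and 2.19 CPM (0.371, 0.210 to 0.631).

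Interferon response genes lay on both sides. In the whole library 8 of 19 were above 1 (median log2 -0.28), where 34.5% of all genes were. By 2-fold 2 were higher and 4 lower, beside 1.32% and 3.31% of all genes. IFI44L was 3.18 and 11.7 CPM (3.69-fold, 2.96 to 4.64), with 16.5 and 74.1 CPM in microglia or macrophage-like and 1.11 and 7.54 CPM in direct pathway SPN-like barcodes. MX2, an antiviral GTPase, was 0.844 and 2.10 CPM. The guanylate binding proteins were lower, GBP1 at 14.4 and 3.98 CPM, GBP2 at 11.1 and 3.55 CPM and GBP3 at 14.4 and 5.29 CPM. GBP1 was 33.8 and 5.24 CPM in astrocyte-like and 14.9 and 3.83 CPM in direct pathway SPN-like barcodes, but 13.2 and 19.9 CPM in microglia or macrophage-like barcodes (1.51, 0.747 to 3.25). PSMB9, an immunoproteasome subunit, was 8.86 and 2.65 CPM and lower in all 9 classes, whereas NLRC5, the class I transactivator, was 2.47 and 5.10 CPM (2.07, 1.58 to 2.74).

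**Figure D5:**
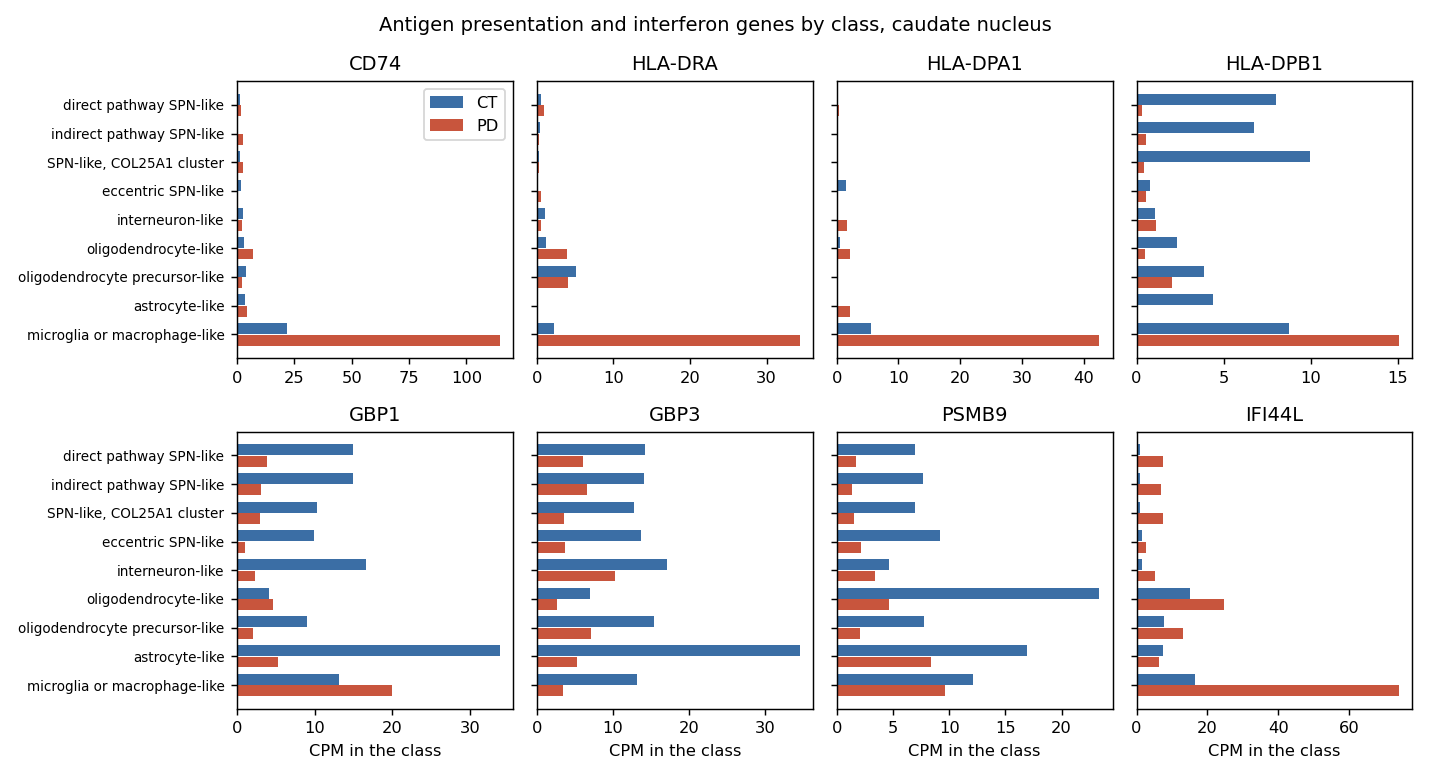
CPM (x axis, linear, a scale of its own in each panel) of 8 antigen presentation and interferon genes in each class (y axis) of the CT (blue) and PD (red) caudate libraries, 1 library each and no error bars. CD74, HLA-DRA and HLA-DPA1 are highest in microglia or macrophage-like barcodes of the PD library, while GBP3 and PSMB9 are lower in PD in all 9 classes.

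All 7 complement genes measured in microglia or macrophage-like barcodes had a ratio above 1 (median log2 0.38), as did 45.9% of all genes. None was past 2-fold, where 1.38% of all genes were higher and 1.8% lower. C1QB was 27.5 and 54.2 CPM (1.97, 1.25 to 3.23), C1QA 60.4 and 78.9 CPM (1.31, 0.939 to 1.84) and C3 122 and 126 CPM (1.03, 0.809 to 1.32). In the whole library C5 was 2.37 and 6.44 CPM and CD55, which protects cells from complement, 20.8 and 39.0 CPM. The cytokine IL6 was 5.81 and 1.88 CPM (3.08-fold lower) and its receptor IL6R 8.70 and 15.3 CPM. Homeostatic microglia genes had 5 of 6 above 1 in microglia or macrophage-like barcodes (median 0.14) and disease-associated microglia genes 6 of 11 (0.12). Among the genes furthest apart in this class were lower ones of the acid lipase family, LIPF with 79 UMIs in CT and 0 in PD (at least 42.1-fold lower) and LIPN at 95.5 and 5.49 CPM. RNLS, the flavin enzyme renalase, was 899 and 113 CPM (0.125, 0.105 to 0.148) in this class and 27.2 and 39.7 CPM in direct pathway SPN-like barcodes.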

How the data were processed

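Per the file headers and the submitters' processing notes, the deposited matrices hold raw UMI counts per gene and barcode, which the authors obtained from Cell Ranger 7.0.1; the notes name hg38, but gene identifiers carry the Ensembl prefix of Macaca fascicularis, and the annotation release is not given in the sources used here. The group of a matrix came from its name. Of 22316 genes 16297 had a symbol. In Python 3.11.15 with pandas 2.3.3, numpy 2.4.6 and scipy 1.17.1, counts were summed over barcodes with 500 or more genes and scaled to CPM. Ratios have exact conditional binomial intervals, shares exact Clopper-Pearson intervals, both at 95%. Log2 ratios had 0.5 UMI added to each side. No free RNA correction was made.

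Clustering used scanpy 1.11.5 (2000 variable genes, 30 principal components, 15 neighbours, Leiden resolution 0.6, both libraries together, no batch correction), and classes were named from 124 marker genes. At a lower resolution the 2 SPN pathways merged. Classes needed 100 barcodes in each library and genes 50 UMIs. Named were the 12 highest and 12 lowest genes by the interval bound nearest to 1, list members by the same bound (up to 4 in each direction), all dopamine and peptide members, and 5 genes in each direction within classes; some were left out for room. Other genes, such as single-class values of MHC, microglia and astrocyte markers, were added after their values were seen. The members and lists were chosen with earlier results of these data known. The ratio step was tested on simulated data. A comparison of a single gene is not reported here.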

Additional observations from a re-analysis of the deposited data

Results flagged for a closer look

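A pair of genes had intervals past 2-fold in opposite directions in the caudate nucleus and the substantia nigra, and the difference between the regions was not tested. HLA-DPB1 had a caudate ratio of 0.178 (0.125 to 0.248; 6.59 CPM in CT and 1.17 CPM in PD), a putamen ratio of 0.0923, and a nigral ratio of 2.62 (2.07 to 3.32; 4.84 and 12.7 CPM). NPFFR2, a receptor of neuropeptide FF, had a caudate ratio of 0.300 (0.265 to 0.337; 34.0 and 10.2 CPM), a putamen ratio of 0.205, and a nigral ratio of 4.18 (3.06 to 5.78; 2.40 and 10.0 CPM). Within the caudate nucleus NPFFR2 was most abundant in eccentric SPN-like barcodes, at 139 and 94.1 CPM, and in the COL25A1 class, at 116 and 27.6 CPM, and it stood at 16.4 and 1.46 CPM in indirect pathway SPN-like barcodes.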

How the results depend on the processing

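No paired analysis was possible because each group was 1 pooled library without replicate columns; no replicate could be left out either. The counts of genes higher and lower by 2-fold, 178 and 446, were 371 and 899 with 20 or more UMIs, 67 and 160 with 500 or more, 316 and 249 with barcodes thinned to 1000 UMIs, and 585 and 1563 at 1.5-fold. With barcodes of 1000 or more genes the share ratios were 8.24 (oligodendrocyte-like), 0.841 (astrocyte-like), 1.65 (microglia or macrophage-like) and 0.844 (all neuron-like), and oligodendrocyte precursor-like reversed to 1.72. Among glia alone they were 1.27, 0.408 and 1.05 for the first 3. List medians that changed sign included those of immediate early genes (0.21 with 500 or more UMIs, 0.17 thinned) and synaptic vesicle genes (0.011 centred on the median of all genes). So did those of myelin genes (-0.050 with classes weighted alike) and homeostatic astrocyte genes (0.015 with 1000 or more genes). With classes weighted alike, lists more evenly split between directions also changed sign. The median of disease-associated microglia genes went from 0.10 to -0.21 and that of AMPA, NMDA and kainate receptors from -0.10 to 0.009. Those of GABA, postsynaptic scaffold and reactive astrocyte genes went from just below 0 to just above it. Of 289 alternative list medians 230 stayed near the main value, and of 2253 alternative ratios of single genes 1786 stayed within the interval of the reported one. A change of direction was counted only for genes past 2-fold in the plain sums, and of these 0 reversed. For the other genes it was not counted. Leaving mixed barcodes out of the denominator, chosen after seeing the data, gave an oligodendrocyte ratio of 1.74. The cause of these changes was not tested. Genes under about 100 UMIs, which include many MHC and cytokine genes, are limited by depth.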

Other observations

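Further gene groups had medians on both sides of that of all genes measured (-0.12), of which 34.5% had a ratio above 1. Lysosomal genes had 8 of 25 members above 1 (median log2 -0.08), with TFEB, the transcription factor that switches on lysosomal genes, at 10.2 CPM in CT and 18.6 CPM in PD (1.83, 1.60 to 2.09), and CTSL, the protease cathepsin L, at 25.6 and 14.6 CPM. Collagen and matrix genes had 8 of 21 above 1 (median -0.09), with COL23A1 at 1.98 and 4.97 CPM and COL5A2 at 69.8 and 137 CPM. Metabotropic glutamate receptors had 4 of 6 above 1 (median 0.13), with GRM5, which is abundant in SPNs, at 1939 and 2149 CPM. MHC class I and antigen processing genes had 4 of 10 above 1 (median -0.22), with HLA-E at 3.76 and 5.65 CPM and PSMB10, an immunoproteasome subunit, at 5.19 and 2.97 CPM. Reactive astrocyte genes had 4 of 10 above 1 (median -0.09). In the potassium channel list KCNH8 was 84.3 and 156 CPM.

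Mixed barcodes, a cluster without markers of 1 class, of which 72.2% had a Scrublet score above 0.25, took 3.25% of the CT and 4.11% of the PD library. Of the sex-linked list 0 genes were in the annotation, and of the blood list 3 were, none with 100 UMIs.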
